A study of Homo sapiens with 2 samples.

Results

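The MCM helicase and replication licensing genes are 10 genes named by symbol, MCM2, MCM3, MCM4, MCM5, MCM6, MCM7, MCM10, PCNA, CDT1 and GMNN. They were chosen by name from what is known of their function, with earlier results of these data known. All 10 were found, each in 1 row, among the 25436 gene symbols of the deposited expression table. Their RNA was measured in HuES53 and HuES64, which are diploid human embryonic stem cell lines. Both were derived from IVF embryos, were undifferentiated and below passage 20, and served as controls in a study of haploid stem cells. The labels list no treatment and no genetic alteration for either line. Polyadenylated RNA from 1 library per line was sequenced, so no value has a replicate error, no test between the lines is possible, and each difference describes 2 libraries.

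DNA replication begins at sites where the origin recognition complex, CDC6 and CDT1 load the ring-shaped helicase made of MCM2, MCM3, MCM4, MCM5, MCM6 and MCM7, each subunit present once per ring. This loading, called licensing, is confined to the time between the end of mitosis and the start of S phase. Geminin, the product of GMNN, binds CDT1 and blocks further loading once S phase has begun. When an origin fires, CDC45 and the GINS proteins join the MCM ring to form the active helicase, MCM10 helps to activate it, and PCNA forms the sliding clamp that holds DNA polymerases on the template. Embryonic stem cells divide rapidly with a short G1 phase, and much of this control acts on the proteins, by phosphorylation and degradation, which RNA levels do not show.

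Both lines carried transcripts of all 10 genes, and most were at close to the same level in HuES53 and HuES64. Levels are given in FPKM, which scales the sequenced fragments of a gene to its transcript length and to the size of the library and can be compared between genes. Differences subtract the HuES64 value of log2(FPKM + 1) from that of HuES53, and the added 1 FPKM makes them slightly smaller than the plain ratio would be. The members were set beside the 13790 genes that averaged 1 FPKM or more over the lines, a filter that all 10 members passed. None of the 10 was at least 1.5-fold different, against 17.1% of all genes tested, and none was at least 2-fold different, against 3.86% (2.15% higher in HuES53 and 1.7% higher in HuES64). At 1.25-fold, a size chosen after the values were seen, 2 of 10 were past it, against 45.1% of all genes tested. MCM6 was the 1 member higher in HuES53 by that measure, against 24.6% of all genes, and CDT1 the 1 higher in HuES64, against 20.5%. The median size of the difference, without its sign, was 0.09 over the 10 members and 0.29 over all genes tested. With 10 genes and no replicates these shares are a description only. Signs hold for the deposited scaling: dividing each library by its FPKM sum, as TPM does, gave all genes a median of 0.25 in place of 0.03 and left CDT1 the only member below 0 and MCM6, at 0.74, the only one past 1.5-fold, against 26.9% of all genes.

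Steps fitted to low values of a few olfactory receptor genes gave an approximate depth at which 1 FPKM over 1 kb stood for 18.1 fragments in HuES53 and 14.8 in HuES64. On that basis the counting error of a member's difference lay between 0.02, for MCM7, and 0.08, for MCM10, and it covers counting only, not variation between cultures. The differences of MCM3, MCM4 and GMNN were smaller than their own counting error. Pluripotency markers were high in both lines, with a summed level of 2680 FPKM in HuES53 and 2590 FPKM in HuES64 over 8 genes. POU5F1, which encodes the core factor OCT4 and supplied much of that sum, stood at 1053 FPKM in HuES53 and 1381 FPKM in HuES64. Of the 8 markers, 6 were higher in HuES53 (median difference 0.46), and LIN28B (0.88), ZFP42 (0.80) and SALL4 (0.73) were more than 1.5-fold higher there. Fibroblast markers summed to 213 FPKM in HuES53 and 230 FPKM in HuES64 over 8 genes, most of it from the collagen genes COL1A1 and COL1A2. DCN, POSTN and FAP did not pass the filter, and FAP was listed at 0 in HuES53. Of the 5 fibroblast markers past the filter, 4 were higher in HuES64 and 1 in HuES53 (median difference -0.38). COL3A1 (-1.14) was more than 1.5-fold higher in HuES64. Neural markers summed to 3.25 FPKM in HuES53, where NEUROD1 was listed at 0, and 1.67 FPKM in HuES64 over 5 genes. Endoderm and mesoderm markers summed to 54.9 FPKM in HuES53 and 41.4 FPKM in HuES64 over 7 genes. Of the 6 past the filter, 5 were higher in HuES53 and 1 in HuES64 (median difference 0.52). MIXL1 (1.15) and EOMES (0.61) were more than 1.5-fold higher in HuES53. Beside these marker counts, 52.5% of all genes tested were higher in HuES53 and 47.5% were lower. The share at least 1.5-fold higher was 9.22% in HuES53 and 7.84% in HuES64. Whether cells of these other types were present, and what part they had in the differences below, was not tested. In RNA from a whole culture, a smaller share of cells in S phase and less RNA per cell cannot be told apart.

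**Figure D1:**
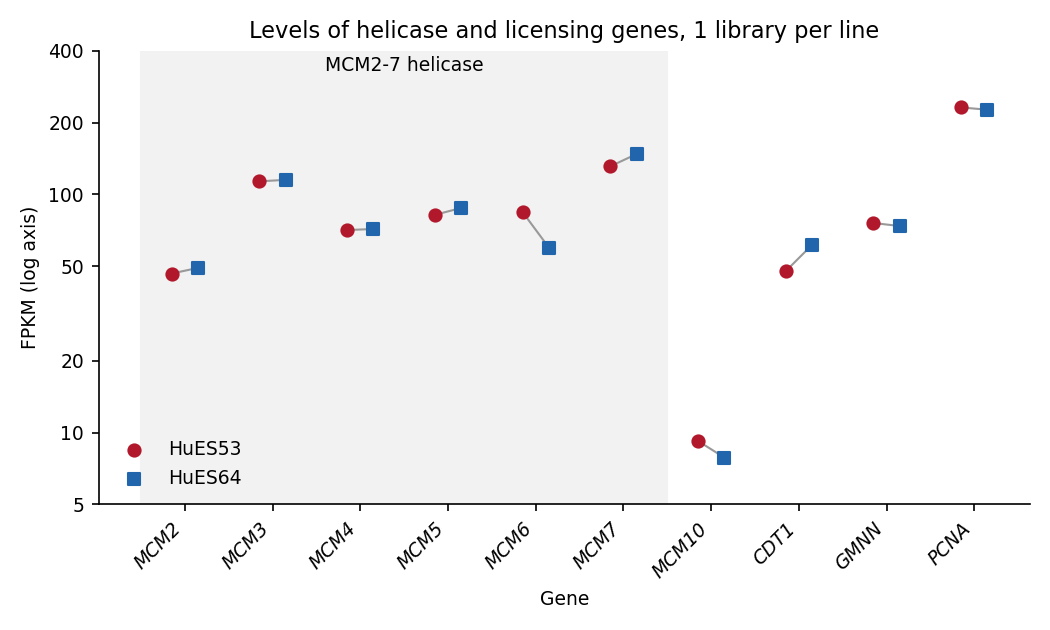
FPKM of the 10 genes on a log axis in HuES53 (circles) and HuES64 (squares), 1 library per line, with a grey line joining the values of a gene. MCM6 and CDT1 show the steepest lines, PCNA is highest (231 FPKM in HuES53 and 226 FPKM in HuES64), and MCM10 is lowest (9.24 FPKM in HuES53 and 7.87 FPKM in HuES64).

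Promoter sequences of the members are shown because these genes are known targets of the E2F transcription factors, which switch on S phase genes, and because MCM6 and CDT1 differed most while MCM3 was level and MCM10 was lowest. Of 10 members, 8 were matched by symbol to RefSeq promoter windows of build GRCh38.p14 (all but MCM4 and MCM5), with 12 windows in all since some genes have several starts. Each window runs over 250 bases before and 50 bases after a transcription start. Windows were searched on both strands for 4 E2F words, TTTCCCGC, TTTGGCGC, TTTCGCGC and TTTGCCGC. The 250 bases before the start are printed 5′ to 3′ on the strand of the gene, with matches in capitals.
MCM6 promoter, chr2:135876444-135876693, minus strand: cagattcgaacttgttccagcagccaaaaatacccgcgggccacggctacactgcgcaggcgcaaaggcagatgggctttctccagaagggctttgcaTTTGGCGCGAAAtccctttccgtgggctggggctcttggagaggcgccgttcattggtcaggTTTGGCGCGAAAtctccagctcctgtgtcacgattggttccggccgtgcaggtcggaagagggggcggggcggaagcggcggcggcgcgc
CDT1 promoter, chr16:88803539-88803788, plus strand: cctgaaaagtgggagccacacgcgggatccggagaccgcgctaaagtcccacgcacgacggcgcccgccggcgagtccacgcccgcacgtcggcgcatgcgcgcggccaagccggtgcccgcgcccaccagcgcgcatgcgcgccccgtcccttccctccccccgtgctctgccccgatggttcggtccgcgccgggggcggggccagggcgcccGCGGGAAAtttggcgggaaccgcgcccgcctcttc
MCM3 promoter, chr6:52284743-52284992, minus strand: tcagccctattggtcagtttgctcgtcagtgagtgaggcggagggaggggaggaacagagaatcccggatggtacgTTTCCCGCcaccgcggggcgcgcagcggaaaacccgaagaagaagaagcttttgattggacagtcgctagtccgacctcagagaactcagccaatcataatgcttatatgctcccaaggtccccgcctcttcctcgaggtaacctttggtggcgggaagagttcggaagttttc
MCM10 promoter, chr10:13161308-13161557, plus strand: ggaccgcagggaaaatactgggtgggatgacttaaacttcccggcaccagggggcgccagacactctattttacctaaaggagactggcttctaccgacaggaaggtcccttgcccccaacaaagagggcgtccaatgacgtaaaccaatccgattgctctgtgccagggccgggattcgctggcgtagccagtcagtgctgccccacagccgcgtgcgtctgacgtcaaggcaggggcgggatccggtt

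At least 1 E2F word was found for 7 of the 8 matched genes, against 3.992% of the 27305 genes with a window, and in 7 of the 12 windows, against 3.315% of all 35116. The MCM6 promoter held 4 matches in 2 stretches, at -152 to -141 and at -90 to -79 counted from the start, each made of TTTGGCGC and, on the other strand, an overlapping TTTCGCGC. CDT1 had 1 match on the other strand at -35 to -28, and MCM3 had 1 at -174 to -167 and a second that spans the start and so is not wholly shown. MCM2, GMNN, MCM7 and PCNA also had matches, with 2 in MCM2 and in MCM7 and 1 in GMNN and in PCNA. MCM10 had no match, which says only that these letters are not in this window. The CCAAT box (CCAAT on either strand) was found in 9 of 12 windows, against 34.6% of all windows, and the GC box (GGGCGG on either strand) in 11 of 12, against 44.95%. The word TTTGAA, known as the cell cycle homology region of genes that peak in G2 and mitosis, was found in 0 of 12, against 15.2%. The members were known E2F targets beforehand and windows of 1 gene can overlap, so these counts carry no test. A match is a run of letters and was not measured as binding. Members with matches included the one with the highest difference (MCM6), the one with the lowest (CDT1) and level ones (MCM3, PCNA).

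The 6 subunits of the ring were expressed within a range of about 3-fold, and their summed level was nearly equal in the lines. The sum was 528 FPKM in HuES53 and 531 FPKM in HuES64, and the mean over the 6 subunits was 88.0 FPKM in HuES53 and 88.4 FPKM in HuES64. The highest subunit, MCM7, was 2.82 times the lowest, MCM2, in HuES53 and about 3 times in HuES64. The coefficient of variation over the 6 subunits was 34.3% in HuES53 and 41.8% in HuES64. The FPKM values of transcripts whose proteins join the ring in equal number were thus not equal in either library. How far GC content or transcript length shifts FPKM between genes was not tested.

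MCM7 (chr7:99690404-99699427 in the deposited table, whose genome build is not given in the sources used here) was the most abundant subunit transcript. It stood at 131 FPKM in HuES53 and 148 FPKM in HuES64, a difference of -0.17, and it supplied 24.8% of the summed subunit level in HuES53 and 27.8% in HuES64. MCM3 (chr6:52128812-52149582) followed at 113 FPKM in HuES53 and 115 FPKM in HuES64, a difference of -0.02. Its share of the sum was 21.5% in HuES53 and 21.7% in HuES64, so that these subunits together were the upper end of the ring in both libraries.

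The MCM7 locus also holds 3 microRNA genes, MIR106B, MIR93 and MIR25, which are processed from its transcript and are known to act on cell cycle regulators. All 3 were listed at 0 FPKM in HuES53 and in HuES64, in libraries of polyadenylated RNA that are not made to capture them, so their levels were not measured here. Their main mature arms, from RefSeq on GRCh38.p14, are shown with the seed (bases 2 to 8) in capitals because the first pair share 1 seed.
hsa-miR-106b-5p: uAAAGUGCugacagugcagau
hsa-miR-93-5p: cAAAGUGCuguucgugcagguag
hsa-miR-25-3p: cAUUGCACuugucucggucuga

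The seed of miR-106b-5p and miR-93-5p was AAAGUGC, and that of miR-25-3p was AUUGCAC. Besides the microRNAs, AP4M1, a subunit gene of an adaptor complex of vesicle transport, overlaps MCM7 by 298 bases in the table and stood at 7.66 FPKM in HuES53 and 8.43 FPKM in HuES64. PCNA-AS1, an antisense RNA whose 384 bases lie inside PCNA, stood at 6.55 FPKM in HuES53 and 4.28 FPKM in HuES64. The strand setting of the counting is not given in the sources used here, so fragments of these genes and of the members they overlap cannot be told apart. Both overlapping genes were low beside MCM7 and PCNA. The loci of the other 8 members overlapped no other gene in the table.

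MCM4 (chr8:48872763-48890720) and MCM5 (chr22:35796116-35820495) lay in the middle of the ring. MCM4, part of the catalytic core of the helicase with MCM6 and MCM7, stood at 70.8 FPKM in HuES53 and 71.5 FPKM in HuES64, a difference of -0.01. It was the member closest to level between the lines. MCM5, which with MCM2 forms the gate through which the ring opens around DNA, stood at 82.0 FPKM in HuES53 and 87.6 FPKM in HuES64, a difference of -0.09. MCM2 (chr3:127317253-127341279), the other side of that gate, was the lowest subunit at 46.5 FPKM in HuES53 and 49.1 FPKM in HuES64, a difference of -0.08. All of MCM2, MCM3, MCM4, MCM5 and MCM7 were slightly lower in HuES53 on the deposited scaling and above 0 on TPM scaling, with a median difference of -0.08 and a standard deviation of 0.06 over these 5 subunits as deposited. MCM6, the subunit that differed most, is not among these 5. With it, the 6 subunits had a median difference of -0.05 and a standard deviation of 0.24. Over all genes tested the median difference was 0.03 and the standard deviation 0.56. Over the 1451 genes with a mean level within the range of the 6 subunits, the median was -0.12 and the standard deviation 0.53.

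MCM6 (chr2:136597196-136634011) was the exception within the ring and the member with the largest difference. It stood at 84.3 FPKM in HuES53 and 59.8 FPKM in HuES64, a plain ratio of 1.41 and a difference of 0.49 with a counting error of 0.03. A total of 86.3% of all genes tested had a lower difference. MCM6 ranked 4 of 10 by level in HuES53 and 8 of 10 in HuES64, where it stood below MCM5, GMNN, MCM4 and CDT1. Its share of the summed subunit level was 16.0% in HuES53 and 11.3% in HuES64. The ratio of MCM6 to MCM4 was 1.19 in HuES53 and 0.836 in HuES64, so the order of these subunits differed between the libraries, and the ratio of MCM6 to MCM2 was 1.81 in HuES53 and 1.22 in HuES64. Without MCM6 the sum of the other subunits was 444 FPKM in HuES53 and 471 FPKM in HuES64.

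The other members covered a wider range of levels than the ring. PCNA (chr20:5095599-5107268) was the highest member in both libraries, at 231 FPKM in HuES53 and 226 FPKM in HuES64, a difference of 0.03. At these levels it exceeded 97.1% of all genes tested in HuES53 and 96.5% in HuES64. MCM10 (chr10:13203554-13253104) was the lowest, at 9.24 FPKM in HuES53 and 7.87 FPKM in HuES64, a difference of 0.21. It stood near the middle of all genes tested, above 45.4% of them in HuES53 and 42.8% in HuES64. MCM2, the next member above MCM10, was 5.04 times as high in HuES53 and 6.25 times in HuES64.

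As deposited, the licensing factor was lower in HuES53 and its inhibitor was nearly level. CDT1 (chr16:88870186-88875666) stood at 47.6 FPKM in HuES53 and 61.3 FPKM in HuES64, a plain ratio of 0.776 and a difference of -0.36 with a counting error of 0.04. A total of 18.3% of all genes tested had a lower difference. GMNN (chr6:24775164-24786278) stood at 75.8 FPKM in HuES53 and 73.6 FPKM in HuES64, a difference of 0.04. The ratio of CDT1 to GMNN transcripts was therefore 0.628 in HuES53 and 0.833 in HuES64, with the inhibitor above the loading factor in both libraries. After removal of the trend over GC content and transcript length, described below, CDT1 stood at -0.02 and GMNN at -0.18 on median transcripts. On longest transcripts CDT1 stood at -0.09 and GMNN at 0.14, so the direction of their contrast depended on the transcript used. The proteins of both genes are degraded in turn during the cell cycle, which these RNA values do not measure.

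By sign alone, 4 of the 10 members were higher in HuES53 (MCM6, MCM10, GMNN and PCNA), against 52.5% of all genes tested, and 6 were lower, against 47.5%. On TPM scaling 9 of 10 were higher, against 72.0% of all genes. Below the top 3, which were PCNA, MCM7 and MCM3 in both libraries, the order was MCM6, MCM5, GMNN, MCM4, CDT1, MCM2 and MCM10 in HuES53. In HuES64 it was MCM5, GMNN, MCM4, CDT1, MCM6, MCM2 and MCM10, so that only the place of MCM6 differed. With 1 library per line it cannot be said which neighbours in this order differ beyond their spread. With 2 libraries there is likewise no pattern across samples by which other genes could be called alike.

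**Figure D2:**
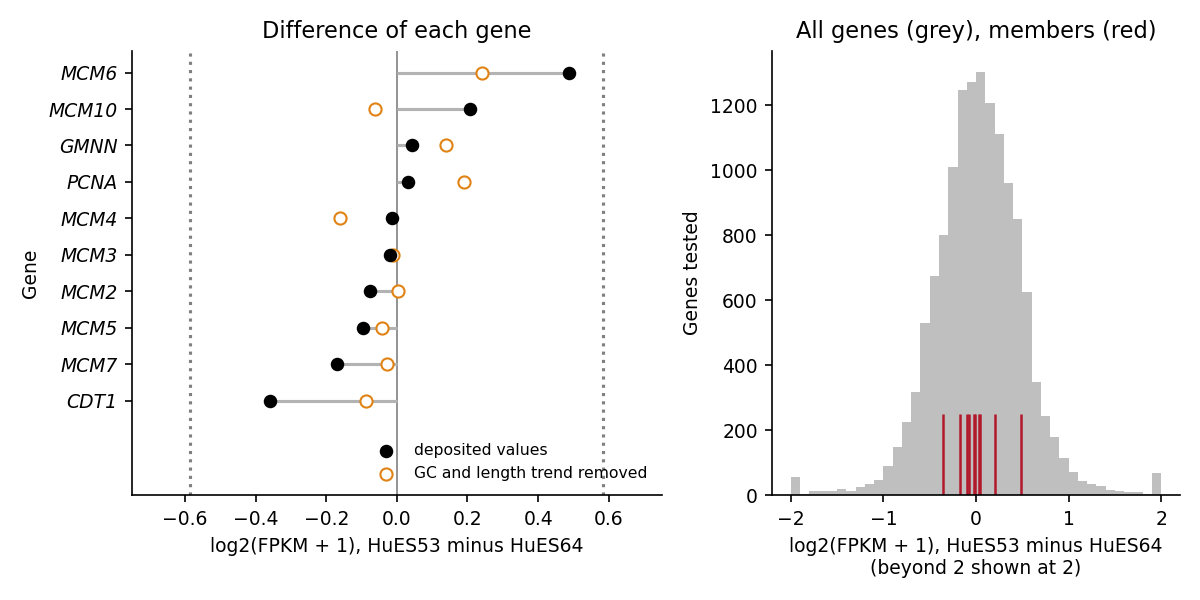
Left, the difference of each gene, HuES53 minus HuES64 in log2(FPKM + 1), with the deposited values (black) and with the trend over GC content and length of the longest transcript removed (open orange), and dotted lines at 1.5-fold. Right, a histogram of the 13790 genes tested with the 10 members as red lines, which run between -0.36 for CDT1 and 0.49 for MCM6.

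The differences of the members followed the GC content of their transcripts. GC content was taken from the longest GENCODE release 29 transcript of each gene and was available for all 10 members. CDT1, lowest in its difference, had the highest GC content at 64.9%, and MCM6, highest in its difference, had the lowest at 43.1%. MCM10 (43.3%), GMNN (43.6%) and PCNA (45.3%) were the other low members and the others with a positive difference. MCM4 (48.5%) and MCM3 (51.6%) were in between, and MCM5 (57.0%), MCM7 (57.6%) and MCM2 (58.1%) were at the high end with negative differences. Spearman's rho between GC content and difference was -0.96 over the 10 members and -0.93 over the 8 without MCM6 and CDT1, against -0.50 over the 11916 genes tested with a reference transcript. These genes share the same 2 libraries, so the values are descriptions. By the median over the transcripts of a gene, in place of the longest, rho was -0.90 over the members and -0.49 over all genes.

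Genes were also divided by GC content into 10 groups of equal size. In the group with the highest GC content (median 64.2%), which holds CDT1, the median difference was -0.31. In the group that holds MCM6 and MCM10 (median GC content 42.2%) it was 0.23. After the median trend over GC content and transcript length was subtracted, the difference of CDT1 was -0.09 and that of MCM6 was 0.24, still the largest of the 10. The difference of MCM10 became -0.06 and that of MCM7 -0.03, while PCNA moved to 0.19, GMNN to 0.14 and MCM4 to -0.16. By the median transcript the signs of 3 of these turned, with PCNA at -0.15, GMNN at -0.18 and MCM10 at 0.10, so the signs of these small differences depend on the transcript used. By the longest transcript, the median size of the difference without its sign was 0.07 over the members and 0.20 over all genes. The median transcript gave 0.12 over the members and 0.22 over all genes.

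**Figure D3:**
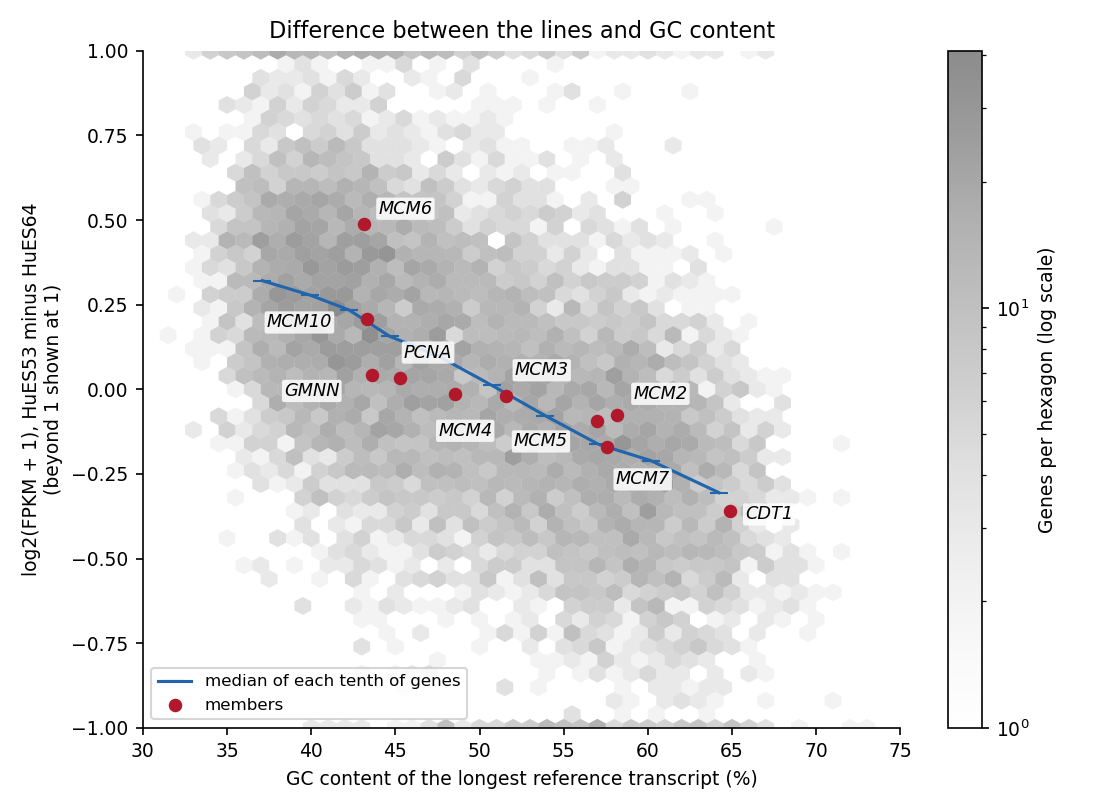
Difference between the lines (y axis, HuES53 minus HuES64 in log2(FPKM + 1)) against GC content of the longest reference transcript (x axis, %) for 11916 genes as grey hexagons on a log colour scale, with the median of each of 10 equal groups of genes by GC content (blue) and the 10 members (red). The members lie along the falling blue line, with CDT1 at its low end and MCM6 above it.

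Further genes of replication were taken from 11 lists by role, with 92 of 93 listed genes in the table and 89 past the filter of 1 FPKM. Of these, 58 were higher in HuES53 and 31 lower, with a median difference of 0.11, against 52.5% of all genes tested above 0 and a median of 0.03. On TPM scaling 76 of 89 were above 0, against 72.0% of all genes. The same shares of all genes stand behind the counts by direction of each list before trend removal. POLA1, the catalytic subunit gene of the polymerase that starts new strands, was the only one at least 1.5-fold different. It stood at 6.08 FPKM in HuES53 and 3.48 FPKM in HuES64, 1.58-fold on the log2(FPKM + 1) scale, and overlaps another gene in the table. The share of all genes at least 1.5-fold higher in HuES53 was 9.22%, and the share at least 1.5-fold higher in HuES64 was 7.84%. After trend removal the lists had 42 of 88 genes above 0 on median transcripts (median -0.0036) and 47 of 88 on longest transcripts (median 0.02).

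The origin recognition genes had a lower median level than the ring. The median level of ORC1 to ORC6, the 6 origin recognition subunits, was 23.4 FPKM in HuES53 and 19.5 FPKM in HuES64, so that the median of the MCM ring was 3.56 times as high in HuES53 and 4.08 times as high in HuES64. Of the 9 loading genes, 5 were higher in HuES53 and 4 lower, with a median difference of 0.06, which was -0.14 after trend removal on either transcript. ORC3 was the highest (47.5 FPKM in HuES53 and 44.3 FPKM in HuES64), and ORC2 differed most (25.5 FPKM in HuES53 and 19.5 FPKM in HuES64). CDC6, the partner of CDT1 in loading and named outside the rule after its value was seen, stood at 34.3 FPKM in HuES53 and 37.6 FPKM in HuES64.

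Relatives and binding partners of the ring were higher in HuES53 in 4 of 4 genes past the filter (median 0.22). Without overlapping loci only MCM8 and MCMBP were left, with a median of 0.41. After trend removal 3 of 4 were above 0 on median transcripts (median 0.10) and 2 of 4 on longest transcripts (median 0.0034). MCM8, which acts in recombination with MCM9, stood at 14.4 FPKM in HuES53 and 9.34 FPKM in HuES64, a difference of 0.57, which became 0.17 after trend removal on median transcripts and 0.16 on longest transcripts. MCMBP, whose product binds MCM proteins, was the highest of the list at 31.0 FPKM in HuES53 and 25.9 FPKM in HuES64.

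HuES53 had the higher level of 7 of 8 origin firing genes (median 0.23), and after trend removal of 6 of 7 on median transcripts (median 0.09) and of 3 of 7 on longest transcripts (median -0.0012). C15orf42, which encodes the firing factor treslin (TICRR), stood at 8.55 FPKM in HuES53 and 5.71 FPKM in HuES64 and overlaps another gene. DONSON, a gene of fork assembly that also overlaps another gene, was the highest at 24.5 FPKM in HuES53 and 21.7 FPKM in HuES64. Among CDC45, the GINS genes and other fork genes, 5 of 9 were higher in HuES53 and the median was 0.0024, or -0.15 and -0.11 after trend removal on median and longest transcripts. GINS2 led that list at 48.6 FPKM in HuES53 and 57.8 FPKM in HuES64, and CLSPN, a checkpoint mediator, differed most at 4.10 FPKM in HuES53 and 3.05 FPKM in HuES64.

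At the fork itself the lists were split. HuES53 had more RNA of 6 of 12 polymerase genes (median 0.02), and POLD2, a polymerase delta subunit, was the highest at 102 FPKM in HuES53 and 130 FPKM in HuES64. Clamp loader genes, whose products place PCNA on DNA, had a median of 0.11, and 5 of 9 were higher in HuES53. That median was 0.25 without overlapping loci, and after trend removal it was -0.0032 on median transcripts and 0.07 on longest transcripts. RFC4 was the highest at 68.5 FPKM in HuES53 and 88.5 FPKM in HuES64, and RFC1 differed most at 21.2 FPKM in HuES53 and 15.3 FPKM in HuES64. Of 6 lagging strand and single-strand binding genes 2 were higher in HuES53, and their median was -0.14, or 0.10 on TPM scaling. RPA2 led them at 51.9 FPKM in HuES53 and 58.9 FPKM in HuES64, and the nuclease gene DNA2 differed most at 14.2 FPKM in HuES53 and 10.9 FPKM in HuES64.

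Of 13 genes that control CDT1 and geminin proteins, 9 were higher in HuES53 (median 0.09). CDC20, an activator of the ligase that degrades geminin in mitosis, was the highest at 180 FPKM in HuES53 and 181 FPKM in HuES64. RBX1, the RING subunit of the cullin ligases that degrade CDT1, differed most at 123 FPKM in HuES53 and 173 FPKM in HuES64. DTL, which directs one of these ligases to CDT1 on PCNA and was named after its value was seen, stood at 20.2 FPKM in HuES53 and 14.8 FPKM in HuES64.

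Genes upstream of S phase were mostly higher in HuES53 as deposited. All 4 S phase cyclin and CDK genes were higher there, with a median of 0.28, and CCNA2 (cyclin A2) stood at 85.7 FPKM in HuES53 and 59.9 FPKM in HuES64. The list median was 0.11 after trend removal on median transcripts and 0.27 on longest transcripts. Without genes that overlap others, CCNA2 among them, only CCNE1 and CDK2 were left and the median was 0.13. Of 9 E2F and partner genes 8 were higher in HuES53, with a median of 0.16. After trend removal that median was 0.0088 on median transcripts and 0.13 on longest transcripts, with 6 of 9 above 0 on the longest. E2F4 was the highest at 49.3 FPKM in HuES53 and 45.1 FPKM in HuES64, and E2F8 differed most at 2.83 FPKM in HuES53 and 1.61 FPKM in HuES64. E2F1, an activator and the exception as deposited, was lower at 12.2 FPKM in HuES53 and 15.1 FPKM in HuES64. Its difference of -0.28 became -0.10 on median transcripts and 0.03 on longest transcripts after trend removal. E2F1 was named after its value was seen. Genes of deoxynucleotide supply were split, 3 of 6 higher in HuES53 (median -0.01). TYMS, the thymidylate synthase gene, which overlaps another gene, was the highest at 89.6 FPKM in HuES53 and 102 FPKM in HuES64.

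**Figure D4:**
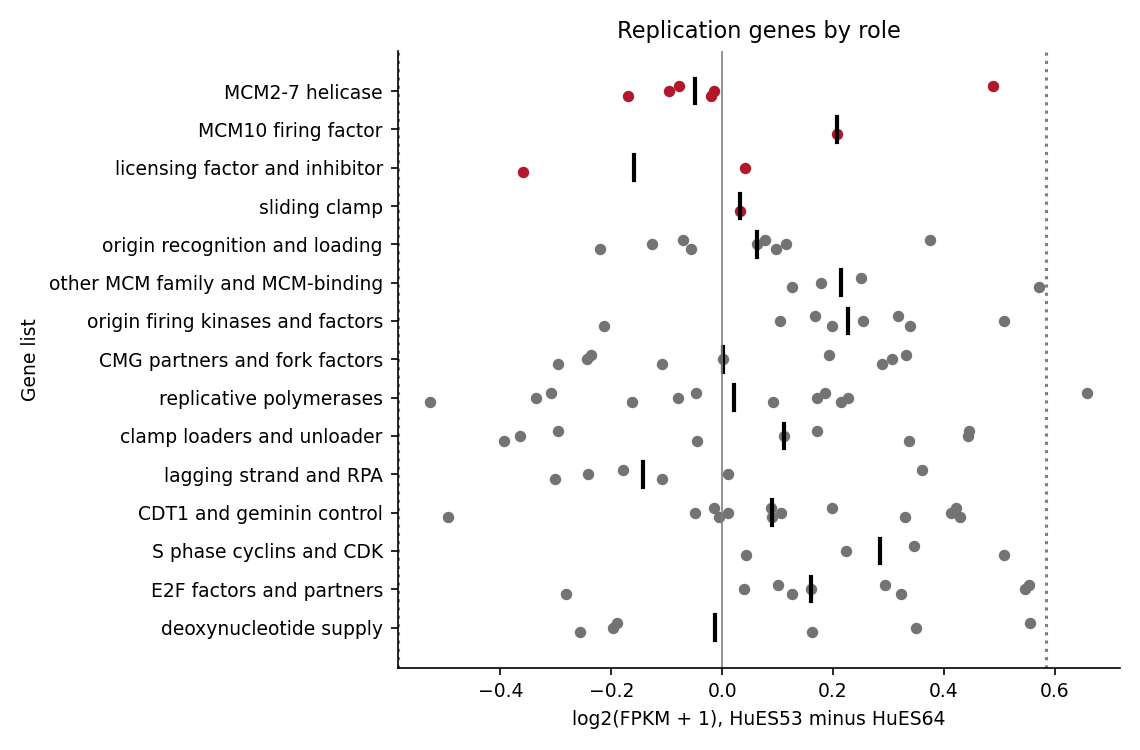
Difference of each gene, HuES53 minus HuES64 in log2(FPKM + 1), by role, for the 10 members (red, top 4 lines) and the 11 further lists (grey), with the list median as a black bar and dotted lines at 1.5-fold. POLA1 is the one gene past a dotted line.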

How the data were processed

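Polyadenylated RNA was turned into libraries with Illumina's TruSeq RNA chemistry, per the labels' protocols. The authors deposited 1 table of FPKM values with 25593 rows, each with a symbol, a locus and 1 value per line, per the file header. TopHat2 2.0.4 and Cufflinks 2.0.2 were used, per the submitters' processing notes. The genome build, annotation and strand setting were not given in the sources used here. No column belonged to another sample.

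From these values, 136 rows on chromosome Y were left out and rows that share a symbol were summed (21 symbols). Differences, counts and medians were computed with Python 3.11.15, pandas 2.3.3 and scipy 1.17.1 on log2(FPKM + 1) for genes that averaged 1 FPKM or more. No p-value was computed, since each line has 1 library. Loci in the table count from 0, as 1035 of 1067 microRNA loci had the length of their hairpin on that reading, and are printed counting from 1.

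The trend was estimated by medians in 20 GC classes and 20 length classes in turn, repeated 5 times and taken off each gene's difference, a step tested on simulated data. GENCODE 29 gave transcripts for 86.4% of the genes tested. Depth was fitted with an assumed fragment length of 200 bases, and 18 of 21 low HuES53 values and 9 of 12 low HuES64 values then lay no more than 3% from whole fragments. The fit kept the step with the largest share, so these shares are no separate evidence for the depth. Fragments per member used the longest transcript.

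The members and lists were chosen with earlier results of these data known. Of each further list the text names the highest gene, the most different gene and any gene at least 1.5-fold different, and genes named outside that rule are marked. A gene that the rule names is not reported here. Alternatives were pseudocounts of 0.1 and 0.5 FPKM, a filter at 5 FPKM or none at all, 3 further scalings, the highest row of a repeated symbol, the trend removed and overlapping loci left out. Removal of the trend by the longest transcript was chosen after seeing the data.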

Additional observations from a re-analysis of the deposited data

How the results depend on the processing

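No paired analysis was possible because each line has 1 library, and for the same reason no replicate could be left out. Under both other pseudocounts, both other filters, upper quartile and median of ratios scaling and the highest row of a repeated symbol, each member's difference and each list median moved by less than 0.1. TPM scaling divides each library by its FPKM sum, which was 601128 in HuES53 and 713421 in HuES64. The median of all genes then became 0.25, against 0.03 as deposited. The median under TPM was 0.23 over the members, 0.20 over MCM2 to MCM7 and 0.35 over the further lists, the median size of a member's difference was 0.23, and 9 members were above 0. MCM6, at 0.74, was then the 1 member at least 1.5-fold different, against 26.9% of all genes, and CDT1 stood at -0.12. Relative to the median of all genes, TPM scaling left MCM6 at 0.48 against 0.46 with the deposited values, CDT1 at -0.37 against -0.39, and the members' median at -0.03 against -0.04. With the GC and length trend removed by the median transcript, the median of the further lists was -0.0036, MCM6 stood at 0.28 and CDT1 at -0.02. Over all settings run, MCM6 ranged from 0.24 to 0.74 and CDT1 from -0.39 to -0.02, so neither changed sign, while each of the other 8 members was above 0 under some settings and below 0 under others. For MCM3, MCM4, MCM5 and MCM7 the only setting above 0 was TPM scaling, which also moved the median of all genes up. No member was 2-fold different under any setting run. Leaving out overlapping loci removed MCM7 and PCNA and moved 3 list medians by 0.1 or more, those of the MCM relatives, the clamp loaders and the S phase cyclins and CDK. Depth limits MCM10 most, with about 767 fragments in HuES53 and 534 in HuES64.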

Other observations

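Genes next to the members, within 5000 bases but not overlapping, were read after the member values were seen. APRT, a purine salvage gene 210 bases from CDT1, stood at 241 FPKM in HuES53 and 412 FPKM in HuES64, a difference of -0.77. GALNS, a lysosomal sulfatase gene 4475 bases from CDT1, stood at 5.64 FPKM in HuES53 and 5.42 FPKM in HuES64, a difference of 0.05. COPS6, a COP9 signalosome subunit gene 580 bases from MCM7, stood at 121 FPKM in HuES53 and 150 FPKM in HuES64, a difference of -0.31. PRKDC, the gene of the DNA-dependent protein kinase, lies 19 bases from MCM4 in the table and stood at 28.1 FPKM in HuES53 and 24.3 FPKM in HuES64, a difference of 0.20, beside a level MCM4. CDS2, a lipid synthesis gene 138 bases from PCNA, stood at 11.1 FPKM in HuES53 and 9.24 FPKM in HuES64, a difference of 0.24, and C20orf30, 1865 bases from PCNA, at 73.6 FPKM in HuES53 and 83.6 FPKM in HuES64, a difference of -0.18. LCT, the lactase gene next to MCM6, was listed at 0 in both lines.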
